A study of Mus musculus with 9 samples.

Results

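The 49 genes described here encode the machinery that copies DNA and divides the cell, and they were measured in left ventricular tissue of mice after transaortic constriction (TAC) or sham surgery. A gene was included where the platform annotation gives a single symbol equal to a listed name, and 48 of the 49, with 116 probe sets, were measured among the 18193 genes tested. Expression of Ccnb1 was not analysed here, while its promoter is included in the promoter counts below. The groups were male C57BL/6 mice 6 weeks after TAC, 4 arrays, and male C57BL/6 mice 6 weeks after sham surgery, 5 arrays. No further allele or agent is given for either group, and the age is not given. TAC narrows the aorta, so that the left ventricle pumps against a raised pressure, and the study used it to bring about heart failure. The values are log2 RMA values of Affymetrix mouse arrays, and a gene is represented by its probe set with the highest mean over the 9 arrays. Tissue was not sorted, so fewer cells of a type and less RNA per cell cannot be told apart. Whether every array came from a separate mouse is not stated, so the p-values cover the spread among these arrays only, which may be technical.

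A dividing cell first licenses its DNA by loading the ring of Mcm2 to Mcm7 onto it with the help of Cdc6 and Cdt1, and D-type and E-type cyclins with their kinases then release E2F factors, which switch on the genes of DNA synthesis. Later in the cycle Mybl2 and Foxm1 act with the MuvB complex on the genes of mitosis, whose products condense and hold chromosomes, build the spindle, guard it through a checkpoint and split the cell. Most cardiomyocytes of the adult mouse no longer divide, while fibroblasts, endothelial cells and macrophages of the heart keep that ability, and cardiomyocytes under load can copy DNA without dividing.

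The control of these genes is written into their promoters, so 4 promoter stretches are shown. They are the 150 bases just before the annotated start, 5′ to 3′ along the gene, from RefSeq on GRCm38.p6, with 3 kinds of motif in capitals on either strand. These are the E2F site, searched as TTTCCCGC, TTTCGCGC, TTTGCCGC or TTTGGCGC, the CHR element of mitotic genes, searched as TTTGAA, and the CCAAT box. Mcm6 and Mcm5 stand for the replication genes and carry E2F letters. Prc1, shown for one of its annotated starts, stands for the mitosis genes and carries a CCAAT box upstream of a CHR element, and Cdk1 carries all 3 kinds.
Mcm6, chr1:128359706-128359855, minus strand: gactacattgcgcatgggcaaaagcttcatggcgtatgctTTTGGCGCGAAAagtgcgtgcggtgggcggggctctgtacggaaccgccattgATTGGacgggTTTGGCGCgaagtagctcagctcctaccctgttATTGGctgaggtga
Mcm5, chr8:75109359-75109508, plus strand: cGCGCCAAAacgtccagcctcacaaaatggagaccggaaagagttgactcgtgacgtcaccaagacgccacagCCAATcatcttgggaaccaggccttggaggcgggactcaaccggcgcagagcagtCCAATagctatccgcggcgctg
Prc1, chr7:80294326-80294475, plus strand: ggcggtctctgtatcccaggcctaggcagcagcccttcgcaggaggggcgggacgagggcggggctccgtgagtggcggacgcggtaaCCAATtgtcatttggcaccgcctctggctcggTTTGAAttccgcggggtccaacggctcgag
Cdk1, chr10:69352913-69353062, minus strand: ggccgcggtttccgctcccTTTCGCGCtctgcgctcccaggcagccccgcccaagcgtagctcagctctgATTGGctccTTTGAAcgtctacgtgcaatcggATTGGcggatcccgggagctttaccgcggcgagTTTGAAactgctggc
A pair of E2F words on opposite strands share letters in Mcm6, and in Mcm5 a further E2F word runs past the left edge of the stretch shown.

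Windows from 250 bases before to 50 after the start were held for 40 of the 49 genes, 44 windows in all. These include the window of Ccnb1, a mitosis gene whose expression was not analysed. An E2F word was present in 6 of 13 windows of replication genes, or 46.2%, and in 1 of 25 windows of mitosis genes, or 4.00%, against 2.26% of all 32851 windows. A CHR element was present in 19 of 25 windows of mitosis genes, or 76.0%, and in 1 of 13 of replication genes, or 7.69%, against 17.9% of all windows. The CCAAT box was in 84.0% of the mitosis windows and 69.2% of the replication windows, against 37.4% of all. A match is a description of the letters in the window and does not show that a factor binds there.

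At an adjusted p below 0.05 in the limma fit over all genes, 23 of the 48 measured genes rose in TAC and 2 fell. That is 47.9% higher, against 12.8% of all genes tested, and 4.17% lower, against 12.3% of all genes. A positive difference was found in 85.4% of the 48 genes, against 49.2% of all genes. The median difference, TAC minus sham, was 0.48 on the log2 scale over the 48 genes and -0.0038 over all genes. All 4 TAC values lay above all 5 sham values in 23 of the 48 genes, against 13.0% of all genes, and below them in 2, against 12.2%. The members of the list were chosen with earlier results of these data known. Leaving out TAC replicate 1, 3 or 4 left 15, 13 and 12 genes that rose, against 9.91%, 9.73% and 11.8% of all genes. Each of the 25 calls was kept without sham replicate 2, where 25 genes rose and 2 fell (13.1% and 13.9% of all genes). At an adjusted p below 0.01, 9 of the 48 genes rose, against 7.45% of all genes, and 2 fell, against 6.88%. A separate fit held only the 9096 genes brighter than the median gene, 14 of the 48 among them. There 8 of the 14 rose and 1 fell, against 21.2% and 24.2% of the genes in that fit. Of the 14, 2 passed there but not in the fit over all genes.

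By role, 7 of 13 replication genes rose and 0 fell, and 14 of 26 measured mitosis genes rose and 2 fell, so that 53.8% rose in either role. The shares over all genes, for these and the other roles below, were 12.8% higher and 12.3% lower. The median difference was 0.39 for the replication genes and 0.53 for the mitosis genes, or 0.39 and 0.47 without sham replicate 2. With the dimmest probe set of each gene the medians were smaller, 0.14 and 0.25, and the contrast between roles was not tested. Of 7 genes of G1/S control 2 rose, or 28.6%, and 0 fell, and of the 2 factors that drive mitotic transcription 0 passed in either direction. At an unadjusted p below 0.05 in limma, 0 replication genes, 0 genes of G1/S control and 0 of the mitotic factors were lower, and 0 of the mitotic factors were higher.

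**Figure D1:**
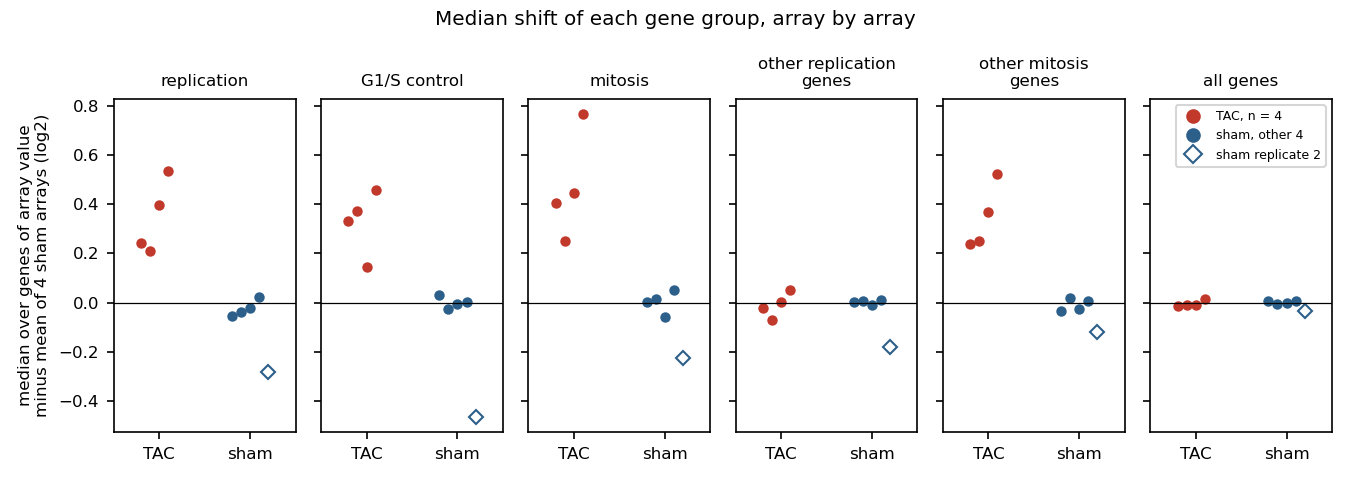
Each point is 1 array and shows the median over the genes of a group of the array's log2 value minus the mean of the 4 sham arrays other than replicate 2, with TAC arrays in red, sham arrays in blue and sham replicate 2 as an open diamond. All 4 TAC arrays lie above all 5 sham arrays for the replication, G1/S control and mitosis genes and for other mitosis genes, but not for other replication genes or for all genes.

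Among the replication genes, 4 of the 6 genes of the helicase ring rose, against 12.8% of all genes. Mcm3 had 7.98, 7.97, 8.24 and 8.50 in the TAC arrays, against 7.34, 6.76, 7.66, 7.64 and 7.90 in the sham arrays, both in replicate order. The groups do not overlap, TAC replicate 4 is the highest array and sham replicate 2 the lowest. Mcm3 rose by 0.71 (SE 0.21, adjusted p = 0.0314), or by 0.54 without sham replicate 2. Mcm5 had 7.29, 7.38, 7.36 and 7.63 in TAC, against 6.98, 6.08, 6.77, 6.92 and 7.19 in sham, and rose by 0.63 (adjusted p = 0.0361). Mcm6 had 8.46, 8.43, 8.69 and 9.05 in TAC, against 8.15, 7.43, 8.18, 8.17 and 8.39 in sham, and rose by 0.59 (adjusted p = 0.0450). In both genes sham replicate 2 is the lowest array by a wide margin, and the other 4 sham values still lie below all TAC values. Mcm4 had 9.62, 9.63, 9.79 and 9.73 in TAC, against 9.25, 9.60, 9.43, 9.20 and 9.32 in sham, and rose by 0.33 (adjusted p = 0.0219). Here sham replicate 2 is the highest sham array, just under the lowest TAC arrays.

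These 4 calls of the helicase ring were not stable to the loss of 1 array. Mcm3 lost its call without TAC replicate 3, TAC replicate 4 or sham replicate 1 (adjusted p up to 0.0873), and Mcm4 without TAC replicate 3, TAC replicate 4 or sham replicate 4 (up to 0.0710). Mcm5 lost it without any of the 4 TAC arrays or sham replicate 3 or 4 (up to 0.0943), and Mcm6 without any of the 4 TAC arrays or sham replicate 1, 3 or 4 (up to 0.118). The remaining ring genes did not pass. Mcm2 had 7.38, 7.29, 7.37 and 7.77 in TAC, against 7.34, 6.36, 7.20, 7.17 and 7.23 in sham, with a difference of 0.39 (95% confidence interval -0.03 to 0.82, adjusted p = 0.171). Mcm7 was nearly level, with a difference of 0.06 (-0.33 to 0.44, adjusted p = 0.857), and TAC replicate 4 alone stood above the sham arrays.

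The 2 loaders of the ring rose, against 12.8% of all genes. Cdc6 had 5.78, 5.44, 5.59 and 5.58 in TAC, against 5.28, 4.89, 5.22, 5.01 and 5.14 in sham, and rose by 0.49 (SE 0.10, adjusted p = 0.00444), a call kept on leaving out any 1 array. Cdt1 had 8.01, 7.70, 7.999 and 8.14 in TAC, against 7.61, 6.69, 7.41, 7.54 and 7.43 in sham, and rose by 0.63 (SE 0.18, adjusted p = 0.0249). The Cdt1 groups do not overlap, and the call was lost without TAC replicate 1, 3 or 4 (adjusted p up to 0.0677).

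Among the 4 enzymes of nucleotide supply 1 passed as higher, against 12.8% of all genes. This was the small subunit of ribonucleotide reductase. Rrm2 had 10.11, 9.92, 10.08 and 10.86 in TAC, against 9.58, 9.36, 9.82, 9.59 and 9.59 in sham, and rose by 0.66 (SE 0.17, adjusted p = 0.0197), a call kept on leaving out any 1 array. TAC replicate 4 is the highest by far, and the groups do not overlap. Rrm1, the large subunit, had 8.50, 8.48, 8.65 and 8.79 in TAC, against 8.57, 8.49, 8.59, 8.83 and 8.69 in sham, and differed by -0.03 (-0.23 to 0.17, adjusted p = 0.852). The thymidine kinase gene Tk1 differed by 0.17 (adjusted p = 0.355) and the thymidylate synthase gene Tyms by 0.18 (adjusted p = 0.332), both with overlapping groups. Pcna, which encodes the sliding clamp of DNA polymerase and also serves DNA repair, had 11.14, 11.12, 11.35 and 11.34 in TAC, against 11.21, 11.19, 11.23, 11.27 and 11.29 in sham. Its difference was -0.0011 (-0.16 to 0.15, adjusted p = 0.995), and the groups overlap.

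In G1/S control the D-type cyclin Ccnd2, which partners Cdk4 and Cdk6, had the smallest adjusted p. Ccnd2 had 12.75, 12.81, 12.82 and 12.87 in TAC, against 12.24, 11.86, 12.21, 12.14 and 11.99 in sham, a rise of 0.72 (SE 0.09, adjusted p = 0.000188) or 1.65-fold. The 4 TAC values lie within a narrow band well above the sham values, and all 7 Ccnd2 probe sets passed over all probe sets, with differences of 0.54 to 0.84. Ccnd1 had 11.90, 11.94, 11.90 and 12.02 in TAC, against 11.60, 10.57, 11.51, 11.48 and 11.68 in sham, and its difference of 0.57 did not pass (adjusted p = 0.0580). The Ccnd1 groups do not overlap, and sham replicate 2 lies far under the next array. Without sham replicate 2 Ccnd1 differed by 0.37 and passed (adjusted p = 0.00275), as it did without sham replicate 5.

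The transcription factor gene E2f1 had 5.96, 6.07, 6.32 and 6.83 in TAC, against 5.70, 4.99, 5.54, 5.33 and 5.52 in sham, and rose by 0.88 (SE 0.19, adjusted p = 0.00645). The groups do not overlap, and the call was kept on leaving out any 1 array. E2f2 had 5.40, 5.63, 5.16 and 5.65 in TAC, against 5.22, 4.998, 5.05, 5.25 and 5.26 in sham, and its difference of 0.31 did not pass (adjusted p = 0.0690) but did without TAC replicate 3. The cyclin E genes, which partner Cdk2, did not pass, with 0.29 for Ccne1 (adjusted p = 0.0819) and 0.19 for Ccne2 (adjusted p = 0.535). The Ccne1 groups do not overlap, with 7.23, 7.10, 7.04 and 7.61 in TAC, against 6.96, 6.86, 6.96, 7.03 and 6.98 in sham. Cdk2 itself differed by -0.12 (-0.41 to 0.17, adjusted p = 0.562).

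**Figure D2:**
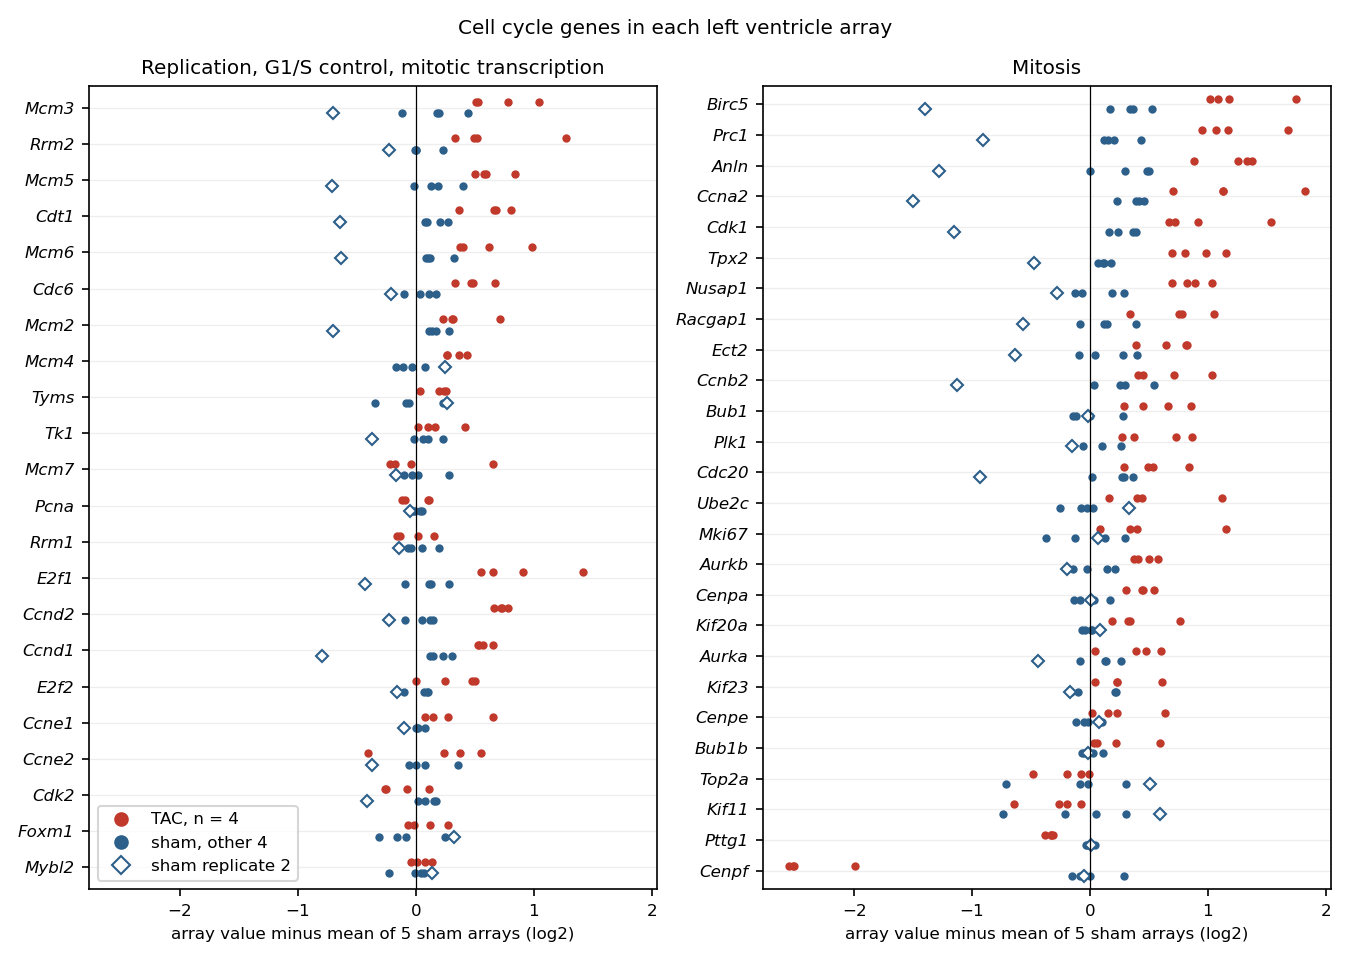
Each row is 1 gene at its brightest probe set, and each point is 1 array's log2 value minus the mean of the 5 sham arrays, with TAC arrays in red above the sham arrays in blue and sham replicate 2 as an open diamond. The open diamond is the leftmost sham point in 32 of the 48 rows, and the Cenpf row has its TAC points far to the left.

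The factors that switch on mitotic genes did not pass in either direction. Foxm1 had 7.21, 7.40, 7.26 and 7.55 in TAC, against 7.12, 7.60, 7.19, 7.53 and 6.97 in sham, a difference of 0.08 (-0.23 to 0.38, adjusted p = 0.744). Mybl2 had 5.08, 4.90, 4.96 and 5.03 in TAC, against 4.94, 5.08, 5.01, 4.72 and 4.99 in sham, a difference of 0.04 (-0.14 to 0.23, adjusted p = 0.755). In both genes the groups overlap.

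Among the kinases and cyclins of mitotic entry, Cdk1, the kinase that drives mitosis, had 7.72, 7.77, 7.97 and 8.59 in TAC, against 7.21, 5.90, 7.41, 7.44 and 7.29 in sham. Its partner Ccna2, cyclin A2, had 7.87, 7.45, 7.87 and 8.56 in TAC, against 6.97, 5.24, 7.16, 7.13 and 7.20 in sham. Neither gene's groups overlap, and in both sham replicate 2 lies far under every other array. Cdk1 rose by 0.96 (SE 0.31, adjusted p = 0.0463) and Ccna2 by 1.20 (SE 0.39, adjusted p = 0.0489), or by 0.67 and 0.82 without sham replicate 2. The second probe set of Ccna2 differed by 0.17, with overlapping groups (adjusted p over all probe sets = 0.468). Without any 1 of the other 8 arrays both genes lost their calls, with adjusted p up to 0.123 and 0.128 without TAC replicate 4. Ccnb2, a B-type cyclin, had 6.77, 6.50, 6.46 and 7.09 in TAC, against 6.60, 4.92, 6.31, 6.09 and 6.35 in sham, and its difference of 0.65 did not pass (adjusted p = 0.147).

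Plk1, a kinase of mitotic entry and exit, had 5.46, 5.57, 5.92 and 6.06 in TAC, against 5.04, 5.04, 5.30, 5.14 and 5.46 in sham, and rose by 0.56 (SE 0.14, adjusted p = 0.0135). Aurkb, the kinase of the chromosomal passenger complex, had 5.75, 5.62, 5.65 and 5.82 in TAC, against 5.46, 5.06, 5.11, 5.39 and 5.23 in sham, and rose by 0.46 (SE 0.10, adjusted p = 0.00527). Both calls were kept on leaving out any 1 array, and neither gene's groups overlap. Birc5, or survivin, a partner of Aurkb in that complex, had the largest increase of the 48 genes, with 8.10, 7.94, 7.9998 and 8.67 in TAC, against 7.26, 5.52, 7.28, 7.08 and 7.44 in sham. The rise was 1.26 (SE 0.36, adjusted p = 0.0258), or 2.39-fold, and 0.91 without sham replicate 2, whose value is the lowest by a wide margin. Birc5 lost its call without TAC replicate 1, 3 or 4 (adjusted p up to 0.0735). Aurka, the spindle pole kinase, missed the threshold at a difference of 0.38 (adjusted p = 0.102) but passed without TAC replicate 2.

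Tpx2, Nusap1 and Cenpa rose, while the spindle genes Aurka, Kif11, Kif23 and Cenpe missed the threshold. Tpx2, which activates Aurka on spindle microtubules, had 7.31, 7.49, 7.20 and 7.66 in TAC, against 6.68, 6.03, 6.61, 6.57 and 6.62 in sham, and rose by 0.91 (SE 0.14, adjusted p = 0.00114). Nusap1, a spindle microtubule binder, had 7.04, 6.91, 7.10 and 7.25 in TAC, against 6.40, 5.94, 6.15, 6.08 and 6.50 in sham, and rose by 0.86 (SE 0.12, adjusted p = 0.000559). These were the smallest adjusted p-values among the mitosis genes that rose, the groups do not overlap, and both calls were kept on leaving out any 1 array. Cenpa, the histone variant that marks centromeres, had 10.60, 10.36, 10.50 and 10.50 in TAC, against 10.09, 10.07, 10.22, 9.92 and 9.98 in sham, and rose by 0.43 (adjusted p = 0.00270). The kinetochore motor gene Cenpe missed the threshold at 0.26 (adjusted p = 0.133).

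In the spindle checkpoint 1 of 2 kinase genes passed as higher, against 12.8% of all genes. Bub1 had 6.61, 6.24, 6.40 and 6.80 in TAC, against 5.95, 5.94, 6.23, 5.83 and 5.80 in sham, and rose by 0.56 (SE 0.12, adjusted p = 0.00784), kept on leaving out any 1 array. Bub1b had 6.39, 6.42, 6.58 and 6.95 in TAC, against 6.31, 6.34, 6.47, 6.39 and 6.29 in sham, and its difference of 0.23 did not pass (adjusted p = 0.171). Cdc20 and Ube2c serve the anaphase-promoting complex, which ends mitosis by marking proteins for destruction, as its activator and its ubiquitin-conjugating enzyme. Cdc20 had 6.76, 6.96, 7.002 and 7.31 in TAC, against 6.83, 5.54, 6.74, 6.76 and 6.48 in sham, a difference of 0.54 that did not pass (adjusted p = 0.147). Its second probe set, whose name ends in x_at, had 6.62, 6.66, 7.0001 and 7.39 in TAC, against 6.35, 5.74, 6.16, 6.32 and 6.26 in sham, and rose by 0.75 (adjusted p over all probe sets = 0.0129), also without sham replicate 2. The groups of the second probe set do not overlap, and the third differed by 0.22 and did not pass. Ube2c had 7.996, 7.76, 8.04 and 8.72 in TAC, against 7.52, 7.93, 7.62, 7.57 and 7.35 in sham, a difference of 0.53 that did not pass (adjusted p = 0.0556). At the brightest probe sets sham replicate 2 is the lowest sham array for Cdc20 and the highest for Ube2c, and without it Ube2c passed with 0.61 (adjusted p = 0.0282), as it did without TAC replicate 2.

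The genes of the midzone and of cytokinesis rose in 5 of 6 cases, against 12.8% of all genes. Prc1, which bundles the microtubules of the midzone, had 8.04, 7.93, 8.14 and 8.65 in TAC, against 7.41, 6.07, 7.18, 7.13 and 7.09 in sham, and rose by 1.22 (SE 0.25, adjusted p = 0.00558), or 2.32-fold. Kif20a, a midzone kinesin, had 7.17, 7.02, 7.15 and 7.59 in TAC, against 6.84, 6.92, 6.79, 6.85 and 6.76 in sham, and rose by 0.40 (SE 0.11, adjusted p = 0.0196). Both calls were kept on leaving out any 1 array, and the groups do not overlap. Anln, the anillin scaffold of the contractile ring, had 6.59, 6.09, 6.47 and 6.54 in TAC, against 5.70, 3.93, 5.22, 5.51 and 5.71 in sham, and rose by 1.21 (SE 0.33, adjusted p = 0.0209). Ect2, which activates RhoA at the cleavage furrow, had 6.99, 6.55, 6.81 and 6.99 in TAC, against 6.07, 5.53, 6.45, 6.21 and 6.57 in sham, and rose by 0.67 (adjusted p = 0.0277). Racgap1, one part of the centralspindlin complex, had 6.68, 6.27, 6.71 and 6.97 in TAC, against 6.07, 5.36, 6.04, 5.84 and 6.32 in sham, and rose by 0.73 (adjusted p = 0.0179).

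Anln, Racgap1 and Ect2 had sham replicate 2 as their lowest array and lost their calls when certain arrays were left out. Anln lost it without TAC replicate 1, 3 or 4 (adjusted p up to 0.0575), Racgap1 without TAC replicate 3 or 4 (up to 0.0525), and Ect2 without TAC replicate 1, 3 or 4 or sham replicate 1 or 4 (up to 0.0776). The Ect2 groups overlap, its lowest TAC value being 6.55 and its highest sham value 6.57, and so do the Racgap1 groups, at 6.27 and 6.32. Kif23, the other part of centralspindlin, missed the threshold at 0.28 (adjusted p = 0.155).

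**Figure D3:**
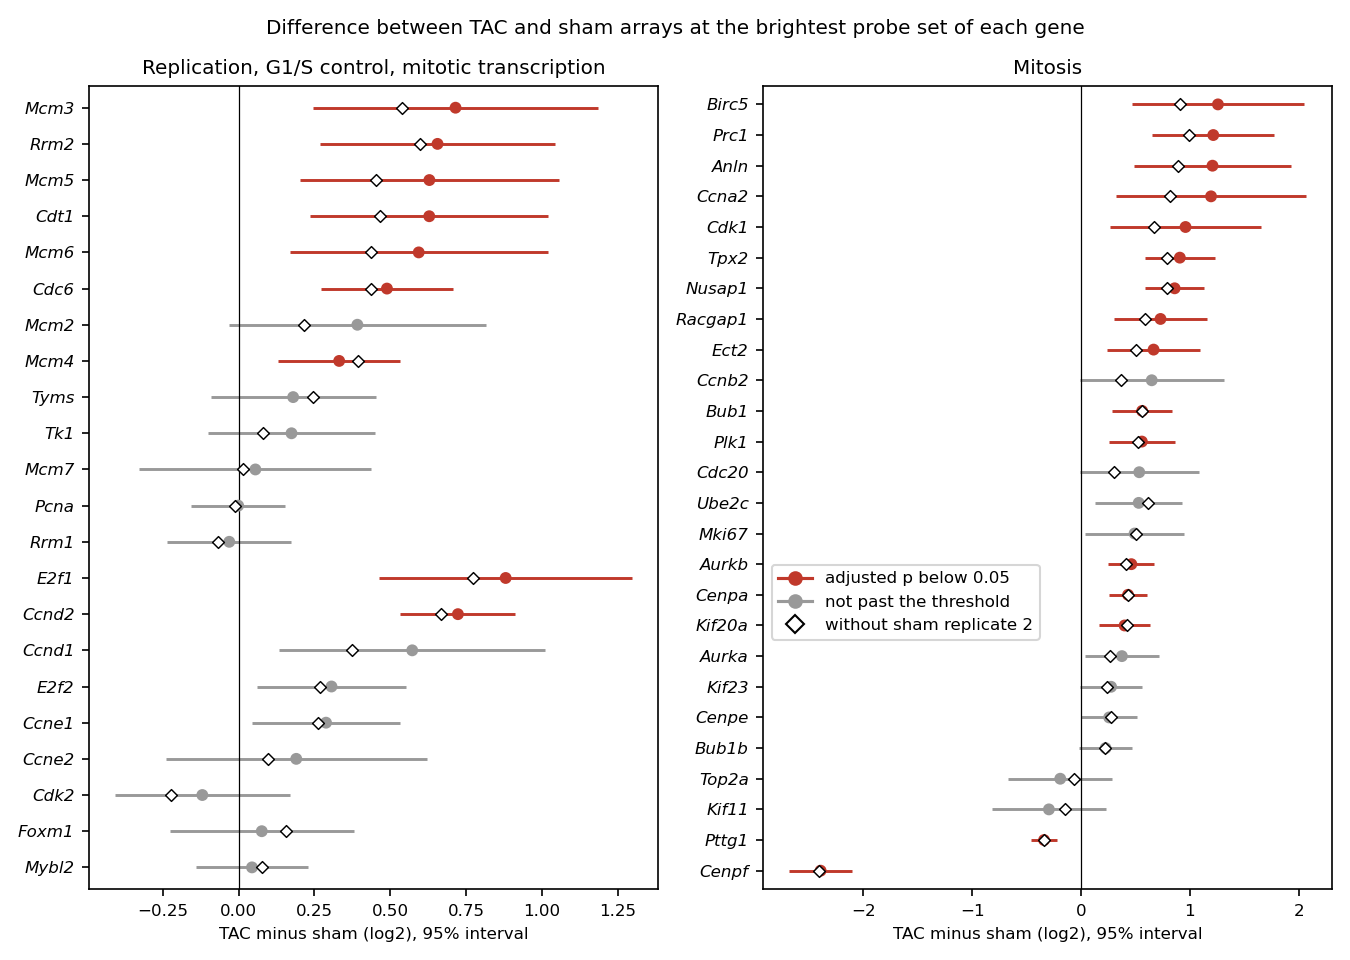
Each row is 1 gene at its brightest probe set, the filled point is the log2 difference TAC minus sham and the bar its 95% confidence interval, red where the adjusted p is below 0.05, and the open diamond is the difference without sham replicate 2. The diamonds lie left of the filled points in most rows with large increases, and Cenpf and Pttg1 are the only rows with a red interval left of 0.

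The 2 genes that fell were Cenpf and Pttg1. Cenpf, a large kinetochore and microtubule-binding protein, had 5.74, 5.75, 5.71 and 6.26 in TAC, against 8.11, 8.21, 8.26, 8.17 and 8.54 in sham, a fall to a level 5.25-fold lower (difference -2.39, SE 0.13, adjusted p = 2.25e-06). The groups lie far apart, and sham replicate 2 is among the other sham arrays. Its second probe set had 4.10, 4.52, 4.68 and 4.59 in TAC, against 5.70, 5.15, 5.23, 5.27 and 5.06 in sham, a difference of -0.81 (adjusted p over all probe sets = 0.00390). The dimmest had 4.10, 4.05, 4.22 and 4.66 in TAC, against 3.56, 3.93, 3.96, 3.88 and 4.02 in sham, a difference of 0.38 that did not pass (adjusted p over all probe sets = 0.0794). The 3 probe sets of Cenpf thus differ in direction, and the groups do not overlap in any of them.

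Pttg1, or securin, which holds back the enzyme that parts sister chromatids, had 13.06, 13.06, 13.01 and 13.08 in TAC, against 13.43, 13.40, 13.40, 13.36 and 13.36 in sham, and fell by 0.34 (SE 0.05, adjusted p = 0.00116). The other 2 probe sets fell by 0.49 and 0.50 (adjusted p over all probe sets = 0.000750 and 0.0308), so all 3 probe sets passed, each with groups that do not overlap.

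Top2a and Kif11, an enzyme that untangles DNA and a kinesin that pushes spindle poles apart, depended on the probe set. At the brightest probe set Top2a had 7.38, 7.78, 7.66 and 7.85 in TAC, against 7.14, 8.37, 8.16, 7.77 and 7.84 in sham, with a difference of -0.19 (adjusted p = 0.581). Its second probe set had 7.30, 7.12, 7.31 and 7.99 in TAC, against 6.62, 4.75, 6.55, 6.64 and 6.77 in sham, with a difference of 1.17 (adjusted p over all probe sets = 0.0585). The groups of the second probe set do not overlap, and without sham replicate 2, which is far under the other sham arrays, the difference was 0.79 and passed (adjusted p = 0.00827). At its brightest probe set Kif11 had 6.75, 7.19, 7.13 and 7.32 in TAC, against 6.65, 7.99, 7.44, 7.18 and 7.70 in sham, and differed by -0.29 (adjusted p = 0.419). Its second probe set had 5.72, 5.07, 5.56 and 5.09 in TAC, against 4.93, 4.49, 4.76, 4.90 and 4.93 in sham, and rose by 0.56 (adjusted p over all probe sets = 0.0284), and the third differed by 0.28 and did not pass. At the brightest probe sets of both genes sham replicate 2 is the highest of the 9 arrays, the opposite of its place at their second probe sets.

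Mki67, which encodes the proliferation antigen Ki-67, had 8.36, 8.11, 8.43 and 9.18 in TAC, against 7.66, 8.10, 8.16, 7.90 and 8.33 in sham. The groups overlap, TAC replicate 4 is the highest array, and the difference of 0.49 did not pass (95% confidence interval 0.04 to 0.95, adjusted p = 0.111).

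Across all 116 probe sets of the 48 genes, 38 passed as higher and 5 as lower in TAC, with p-values adjusted over all probe sets. These are 32.8% higher, against 8.87% of all probe sets, and 4.31% lower, against 8.85%. At least 1 probe set was higher for 24 genes and lower for 2, and 0 genes had calls in both directions. Of the 36 genes with several probe sets, 5 had every one called, and 13 had probe sets of both signs. The table holds no detection calls. As a rough guide only, since levels of different probe sets are not on one scale, 39 olfactory receptor genes, a family hardly used outside the nose, had a median level of 3.99 and a 95th percentile of 6.38, and 34 of the 48 genes lay above that percentile at their brightest probe set, as did 63.2% of all genes. Of the 57 probe sets at or under that level 13 were called, with a median difference of 0.17, and of the 59 above it 30 were called, with a median difference of 0.53. Genes that rose while under that percentile at their brightest probe set were Cdc6, E2f1, Plk1, Aurkb, Bub1, Racgap1 and Anln. Their mean levels were 5.32, 5.81, 5.44, 5.45, 6.20, 6.25 and 5.75.

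**Figure D4:**
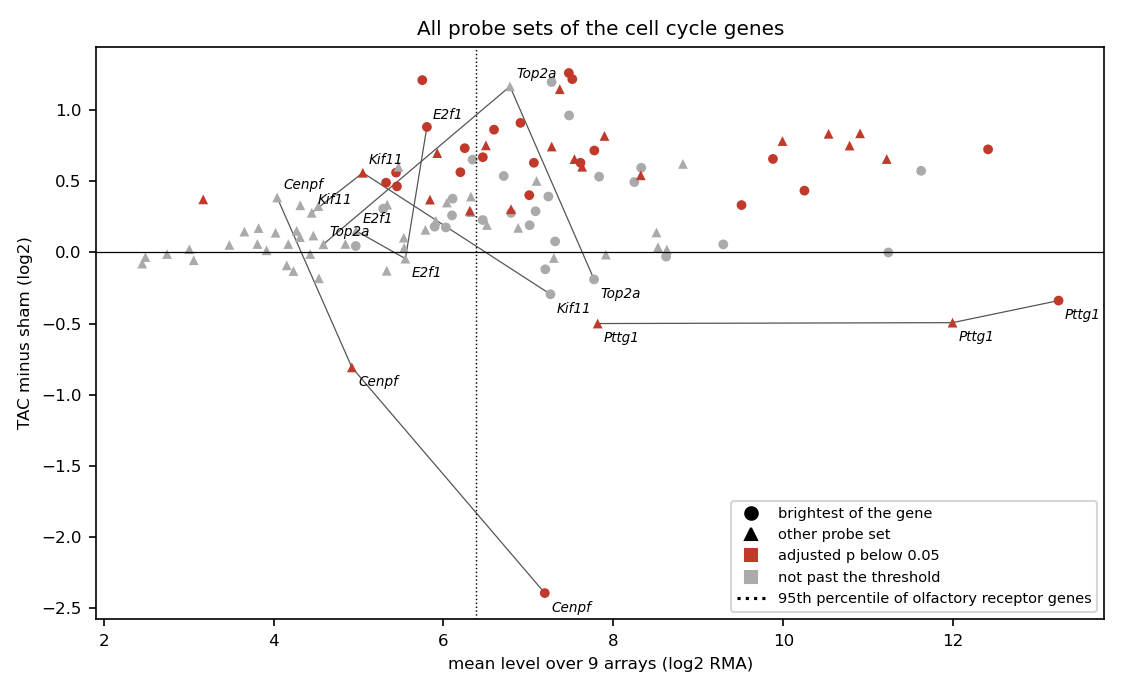
Each point is 1 probe set of the 48 genes, with its mean level over 9 arrays (log2 RMA) on the horizontal axis and TAC minus sham (log2) on the vertical axis, circles for the brightest probe set of a gene, triangles for the others, red where the adjusted p over all probe sets is below 0.05, and lines joining the probe sets of 5 genes. Pttg1 is below 0 at all 3 probe sets, while Cenpf, Top2a, Kif11 and E2f1 have probe sets on both sides of 0.

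Some increases rest on 1 probe set. Probe sets whose Affymetrix name ends in x_at can hybridise to other transcripts, and the brightest ones of Mcm4, Mcm5 and Rrm2 are of that kind. Their other probe sets differed by 0.14 for Mcm4, by 0.35 and 0.17 for Mcm5 and by 0.03 and 0.60 for Rrm2, and did not pass. The brightest probe sets of Foxm1 and Ccne1, which did not pass, are also named x_at. Foxm1 differed by 0.19, 0.06 and -0.01 at its other probe sets and Ccne1 by 0.28, and these did not pass. With p-values adjusted over all probe sets, the brightest ones of Ccna2, Cdk1 and Mcm6 missed the threshold (adjusted p = 0.0578, 0.0551 and 0.0554). The second of Mcm6 rose by 0.82 (adjusted p = 0.00674), while the third of Mcm6 differed by 0.14 and did not pass. The names of both of these Mcm6 probe sets end in x_at. Anln had 0.33 at its second probe set, and Cdt1 0.33 and 0.02 at its other probe sets, and these did not pass. The second probe set of Aurkb, also named x_at and dimmer than the median olfactory receptor gene, rose by 0.37. It missed the threshold without sham replicate 2 (adjusted p = 0.0577). The dimmest probe set of Ccnd1 rose by 0.65, while its second differed by 0.62 and did not pass. E2f1 had -0.04 and 0.15 at its other probe sets, Nusap1 -0.13, Bub1 -0.13 and Cenpa -0.02 and 0.12, and these did not pass. Tpx2 had 0.70, which passed, -0.18 and -0.09, and Racgap1 0.37, which passed, and -0.08. When all probe sets of each gene were averaged, Bub1, Cenpa, Mcm5 and Cdt1 lost their calls, at differences of 0.22, 0.18, 0.38 and 0.33 (adjusted p = 0.0851, 0.271, 0.0819 and 0.113). Ccnd1, E2f2 and Cdc20 passed there, at 0.62, 0.32 and 0.50 (adjusted p = 0.0427, 0.0437 and 0.0365). Both probe sets of Prc1 rose, by 1.22 and 1.15, and all 5 of Mcm3 were between 0.29 and 0.74.

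Within each group 1 array lay at the end of the range for most of these genes. Sham replicate 2 was the lowest sham array for 32 of the 48 genes, or 66.7%, against 36.9% of all genes, and among them for all 7 G1/S control genes, 11 of 13 replication genes and 14 of 26 mitosis genes. Its median distance from the mean of the other 4 sham arrays was -0.28 for replication genes, -0.47 for G1/S control genes and -0.22 for mitosis genes, against -0.03 for all genes. TAC replicate 4 was the highest TAC array for 38 of the 48 genes, or 79.2%, against 35.1% of all genes. On the same scale the medians of TAC replicates 1 to 4 were 0.41, 0.25, 0.45 and 0.77 for mitosis genes and 0.24, 0.21, 0.40 and 0.54 for replication genes, so that the TAC arrays all lay above the sham arrays in both roles.

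Other genes of the same processes, not among the 49, were counted for comparison. Of 48 other mitosis genes 21 rose and 2 fell, with a median difference of 0.39, and of 40 measured other replication genes 2 rose and 5 fell, with a median of 0.01. The corresponding shares are 43.8% and 5.00% higher, against 12.8% of all genes, and 4.17% and 12.5% lower, against 12.3% of all genes, so that the falls among the replication genes were as frequent as over all genes. Without sham replicate 2, 24 rose and 3 fell among the mitosis genes, and 4 rose and 8 fell among the replication genes, with 13.9% of all genes lower in that fit. The lists were chosen with earlier results of these data known, and the contrast between them was not tested.

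Among other mitosis genes, Nuf2, a kinetochore component, had 6.12, 5.74, 5.95 and 6.31 in TAC, against 5.04, 4.56, 5.03, 5.06 and 5.16 in sham, and rose by 1.06 (SE 0.14, adjusted p = 0.000402). Cep55, which acts at the midbody in the last step of cytokinesis, rose by 0.93 (adjusted p = 0.000556), Zwilch, a kinetochore checkpoint component, by 0.48 (adjusted p = 0.000758) and Cdca3 by 1.07 (adjusted p = 0.00230). The 2 that fell were Sgo2a, a guardian of centromere cohesion, by 0.77 (adjusted p = 0.00488) and the kinetochore gene Spc24 by 0.54 (adjusted p = 0.0164), both with overlapping groups.

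Among other replication genes, Uhrf1, which guides maintenance of DNA methylation, rose by 0.60 (SE 0.14, adjusted p = 0.0113) and the origin-firing kinase gene Cdc7 by 0.39 (SE 0.10, adjusted p = 0.0175). Dut, which encodes the enzyme that keeps uracil out of DNA, had 9.33, 9.25, 9.44 and 9.54 in TAC, against 10.16, 10.15, 10.20, 10.16 and 10.17 in sham, and fell by 0.78 (SE 0.07, adjusted p = 3.35e-05). The single-strand binding subunit genes Rpa1 and Rpa3, the second of them chosen after its value was seen, fell by 0.42 and 0.39 (adjusted p = 0.00202 and 0.00752), the polymerase delta subunit gene Pold2 by 0.39 (adjusted p = 0.00241) and Gmnn, whose product geminin binds Cdt1 and blocks licensing, by 0.34 (adjusted p = 0.00558). All TAC values lay below all sham values in each of the 5 that fell.

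Of 17 other cell cycle regulators 5 rose and 1 fell, with a median of 0.10. That is 29.4% higher, against 12.8% of all genes, and 5.88% lower, against 12.3%. Without sham replicate 2, 3 rose and 1 fell, or 17.6% and 5.88%, against 13.1% and 13.9% of all genes. E2f3 rose by 0.45 (adjusted p = 0.00379), Cdk6, a partner of the D-type cyclins, by 0.65 (adjusted p = 0.00512), Myc by 1.22 (adjusted p = 0.0273) and E2f8 by 0.46 (adjusted p = 0.0409, and 0.0511 without sham replicate 2). The TAC arrays were uneven for Myc, with 8.74, 6.90, 8.64 and 7.37, against 6.30, 6.74, 6.79, 6.83 and 6.82 in sham. Cdc25a, the fifth, was chosen after its value was seen and rose by 0.27 (adjusted p = 0.0494, and 0.0551 without sham replicate 2). Tfdp2, a partner of E2F factors, fell by 0.71 (adjusted p = 0.000148).

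Of 14 genes of CDK inhibitors, of pocket proteins and of the MuvB complex, 3 rose and 4 fell, with a median of 0.02. That is 21.4% higher, against 12.8% of all genes, and 28.6% lower, against 12.3%. Without sham replicate 2, 3 rose and 2 fell, so that 14.3% were lower, against 13.9% of all genes. Cdkn2b had 7.38, 7.18, 7.52 and 6.99 in TAC, against 6.28, 5.12, 5.92, 5.98 and 6.27 in sham, and rose by 1.35 (SE 0.22, adjusted p = 0.00139). Cdkn2d rose by 0.37 (adjusted p = 0.00107) and Cdkn1a, which encodes p21, by 0.50 (adjusted p = 0.0303, groups overlapping). Cdkn1c, which encodes p57, had 7.76, 7.88, 7.72 and 7.81 in TAC, against 8.85, 8.32, 8.59, 8.68 and 8.77 in sham, and fell by 0.85 (SE 0.10, adjusted p = 0.000224). Cdkn1b fell by 0.31 (adjusted p = 0.0358). Lin52 and Cdkn2c fell by 0.35 and 0.24 (adjusted p = 0.0357 and 0.0418), and both missed the threshold without sham replicate 2 (adjusted p = 0.0506 and 0.0611).

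Among markers of the cell types in the ventricle, 4 of 7 macrophage and 4 of 6 fibroblast markers rose in TAC, while other lists had up to 2 calls in a direction. Over all genes 12.8% were higher and 12.3% lower. The 8 cardiomyocyte markers had mean levels of 14.01 to 14.03 in the TAC arrays, against 14.06 to 14.07 in the sham arrays, so the labelled tissue carries its defining genes, and 1 of them fell, or 12.5% (Tnni3, by 0.16, adjusted p = 0.0475). Of 7 macrophage markers 4 rose, or 57.1%, and 0 fell, and 5 rose and 0 fell without sham replicate 2, and their mean level was 8.82 to 8.90 in TAC, against 8.23 to 8.47 in sham. Cx3cr1 rose by 1.21, Adgre1 by 0.97 and Mrc1 by 0.42 (adjusted p = 2.87e-05, 0.000139 and 0.00417). Cd163 of the same list, chosen after its value was seen, had a difference of -0.40 and missed the threshold (adjusted p = 0.0564). Of 6 fibroblast markers 4 rose, or 66.7%, and 0 fell, and their mean level was 11.81 to 12.13 in TAC, against 10.83 to 11.30 in sham. Postn rose by 3.28, Col1a1 by 0.92 and Col3a1 by 0.90 (adjusted p = 3.19e-05, 2.05e-05 and 8.99e-05). Pdgfra and Tcf21 of the same list, chosen after their values were seen, differed by 0.04 and 0.13 with overlapping groups. Neither passed (adjusted p = 0.698 and 0.541). Sham replicate 2 was the lowest sham array in the mean of both lists. It was also the lowest in the endothelial, lymphocyte and erythroid means and in the mean over all genes, at 7.65 against 7.68 to 7.69. TAC replicate 4, the highest TAC array for most cell cycle genes, was the lowest TAC array in the fibroblast mean. In the macrophage mean it was the highest, at 8.90 against 8.88 in TAC replicate 1, but in the macrophage median level it was the lowest TAC array, at 9.03. The part of these cell types in the cell cycle genes was not tested.

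Of 6 endothelial markers 1 rose (Vwf, by 0.44, adjusted p = 0.00527) and 1 fell (Kdr, by 0.25, adjusted p = 0.0284), which is 16.7% each, or 1 and 2 without sham replicate 2, with a mean level of 10.03 to 10.16 in TAC, against 9.95 to 10.35 in sham. Of 5 smooth muscle and pericyte markers 2 rose and 2 fell, or 40.0% each, with 10.79 to 10.99 in TAC, against 10.86 to 11.11 in sham, and Acta2 fell by 0.53, Tagln rose by 0.53 and Myh11 fell by 0.59 (adjusted p = 0.00154, 0.00550 and 0.0107). Pdgfrb, chosen after its value was seen, rose by 0.25 (adjusted p = 0.0215). Of 5 platelet markers 2 passed, or 40.0%: Ppbp fell by 2.30 and Pf4 fell by 0.37 (adjusted p = 0.00231 and 0.00414), with a mean level of 7.01 to 7.25 in TAC, against 7.52 to 8.39 in sham, where sham replicate 2 was the highest. In limma 0 of 5 lymphocyte, 0 of 3 neutrophil and 0 of 3 erythroid markers passed, and at an unadjusted p below 0.05 there were 0, 0 and 1, the last lower. Their mean levels were 5.42 to 5.87, 7.25 to 8.35 and 5.79 to 6.01 in TAC, against 5.49 to 5.88, 7.46 to 8.12 and 6.00 to 6.08 in sham. The erythroid marker Hba-a1 lay under the median of the olfactory receptor genes, and no value in the table is 0.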

How the data were processed

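Total RNA of flash-frozen left ventricle was hybridised to Affymetrix mouse arrays, 4 after TAC and 5 after sham surgery. The deposited log2 values were made with RMA by the authors, per the submitters' processing notes, whose version and settings are not given in the sources used here. Every array holds the same sorted values, from 2.25 to 14.80. Of 45101 probe sets, 64 were controls and were left out of the fit over genes, 34945 had 1 platform symbol, 932 had several and 9224 had none listed, and 34741 were matched by gene ID. This left 18193 genes. The brightest probe set per gene was tested in R 4.3.3 by the linear models and moderated variances of limma 3.58.1 (two-sided, Benjamini-Hochberg over all genes, no covariate), with every probe set fitted separately as a check. The code was tested on simulated data. Precision is set by how many arrays there are.

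The members and lists were chosen with earlier results of these data known. Every array value at the brightest probe set is given for the 48 genes where they passed, where groups do not overlap or where probe sets differ in direction with a call. Up to 4 called genes per direction and list, and up to 3 markers per cell type, were named by smallest p, apart from genes said to be chosen after their values were seen. Replicate numbers follow the order of deposit and only name arrays. Alternatives were the mean or dimmest probe set, filters on dim genes, other variance models, array weights, centring, cyclic loess, a stricter threshold and leaving out each array. Expression of Ccnb1 was not analysed here, while its promoter window was counted.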

Additional observations from a re-analysis of the deposited data

Results flagged for a closer look

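In 13 of the 96 groups of values examined (48 genes in the TAC arrays and in the sham arrays) 1 array stood far from the others by Dixon's criterion, with critical values of 0.829 for 4 samples and 0.710 for 5. Chance alone flags about 1 in 20 groups, and genes of 1 array are not independent. In the TAC arrays this was Cenpf alone, where replicate 4 was the highest at 6.26. In the sham arrays it was replicate 2 in all 12 cases, each time as the lowest array.

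Among replication and G1/S control genes sham replicate 2 had 6.36 for Mcm2, 7.43 for Mcm6, 6.69 for Cdt1, 10.57 for Ccnd1 and 6.84 for Cdk2. Among mitosis genes it had 5.24 for Ccna2, 5.90 for Cdk1, 5.52 for Birc5, 6.03 for Tpx2, 5.54 for Cdc20, 6.07 for Prc1 and 3.93 for Anln. Of these 12 genes, Mcm6, Cdt1, Ccna2, Cdk1, Birc5, Tpx2, Prc1 and Anln rose in TAC with and without that array.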

How the results depend on the processing

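Of the 48 genes, 23 rose and 2 fell. Leaving out 1 array gave between 12 genes that rose (without TAC replicate 4) and 25 (without sham replicate 2), with 13 without TAC replicate 3 and 15 without TAC replicate 1. At an adjusted p below 0.01, 9 rose, against 7.45% of all genes. In a separate fit of only the genes brighter than the median gene, 8 of 14 rose and 1 fell, against 21.2% and 24.2% of the genes in that fit. Of the 14, 2 passed there but not in the fit over all genes. With the dimmest probe set of each gene the median difference was 0.14 for replication genes and 0.25 for mitosis genes, and the cause was not tested. At the brightest probe set, leaving out each array gave medians of 0.32 to 0.46 for replication genes and of 0.43 to 0.63 for mitosis genes.

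Several differences that did not pass changed sign, and the cause was not tested. With the probe sets of each gene averaged, Rrm1 was 0.0598, Kif11 0.18 and Top2a 0.34. Averaged and without sham replicate 2, a setting chosen after seeing the data, Rrm1 was 0.0639, Kif11 0.20, Top2a 0.27 and Mcm7 -0.0164. Mcm7 was -0.0627 with array weights, Pcna 0.0297 under cyclic loess and Mybl2 -0.0064 with arrays centred on their medians. On leaving out each array, Mcm7 ranged from -0.145 to 0.1473, Pcna from -0.0387 to 0.0382, Rrm1 from -0.0925 to 0.0191, Foxm1 from -0.002 to 0.1563 and Mybl2 from -0.0137 to 0.0775. Mcm4 lost its call with centred arrays. Of the 25 calls 14 were kept on leaving out any 1 array. No paired analysis was possible because the labels give no replicate numbers.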

Other observations

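The promoter letters were also set beside the calls. An E2F word was present in 6 of 19 windows of genes that rose, or 31.6%, and in 3 of 22 windows of genes that did not pass, or 13.6%. A CHR element was present in 9 of 19 windows of genes that rose, or 47.4%, and in 11 of 22 windows of genes that did not pass. These are counts of letters over few windows, with no test, and windows were not held for 9 of the 49 genes.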
